A study of Homo sapiens with 3 samples.

Results

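The small nucleolar RNAs (snoRNAs) counted in RWPE1 cells were taken as every row of the gene count table whose symbol begins with SNORD, SNORA or SCARNA and that held at least 30 counts summed over the 3 libraries, leaving out the SNORD3 copies and SNORD118. By this rule 218 of the 58037 genes in the table were kept: 98 box C/D snoRNAs (SNORD), 100 H/ACA snoRNAs (SNORA) and 20 small Cajal body RNAs (SCARNA). Of the other 321 rows with such symbols, 194 were at 0 in all libraries and 127 held 1 to 29 counts. The members were chosen by their counts summed over the 3 libraries, so their presence at this level is a description. Just inside the limit stood SNORA10B and SNORD11B with 31 counts each and SNORD21 with 34. Just outside it stood SNORA58 and SNORD53 with 29 counts each and SNORD1B with 28.

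RWPE1 is a non-tumor line of human prostate epithelial cells, and the study used bulk RNA sequencing to ask how its transcriptome differs with the state of OLFM4, which encodes the secreted glycoprotein olfactomedin 4. There was 1 library for each of 3 states, labelled OLFM4-wild, OLFM4-knockout and OLFM4-active. The knockout was made with a CRISPR/Cas9 double nickase plasmid and the activation with a CRISPR activation plasmid, in stable lines kept under puromycin, and the sequenced cells were sorted for a GFP reporter. The study calls its OLFM4-knockout and OLFM4-wild lines cell clones. The methods also name the activation plasmid for reporter cells called OLFM4-wild, so it cannot be told from them whether the OLFM4-wild library came from unmodified cells. With 1 library per state no test across states is possible, every interval given here is an exact 95% Clopper-Pearson interval of counting error only, and differences between the cell lines, between library preparations and between OLFM4 states cannot be told apart.

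Library totals were 16309906 counts for OLFM4-wild, 58837147 for OLFM4-knockout and 23224216 for OLFM4-active. Levels are CPM, the counts relative to library size, scaled by the trimmed mean of M-values (TMM), and fold changes are log2 ratios of these with 0.5 counts added. OLFM4 itself had levels of 11.8, 2.55 and 0.67 CPM, and the lowest of these, in the library labelled OLFM4-active, goes against that label, so this library is named by its label only. Where 3 values of a row follow each other below, they are in the order OLFM4-wild, OLFM4-knockout and OLFM4-active. Basal epithelial keratins were abundant in all 3 libraries, with KRT5 at 12232 to 27077 CPM and TP63 at 414 to 472 CPM, and of the luminal markers KRT8 stood at 146 to 282 CPM and KRT18 at 157 to 191 CPM, while KLK3, PTPRC and PECAM1 were at most 0.11 CPM. The fibroblast gene COL1A1 stood at 21.8 to 30.2 CPM.

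Box C/D snoRNAs are short RNAs that carry a C box near the 5′ end and a D box near the 3′ end, and they guide the methyltransferase fibrillarin to riboses of ribosomal RNA (rRNA). H/ACA snoRNAs fold into hairpins, end in an ACA box and guide the pseudouridine synthase dyskerin, while small Cajal body RNAs guide the same modifications on spliceosomal RNAs. Most human snoRNAs are cut from introns of host genes, many of which encode ribosomal proteins or are noncoding genes known mainly for the snoRNAs they hold, and a few snoRNAs act in the cleavage of the pre-rRNA rather than in its modification.

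The boxes were read in the annotated transcripts (GENCODE, assembly GRCh38) on the transcribed strand. TGATGA within the first 20 bases, the C box letters, was present in 66.3% of the box C/D members, in 69.0% of the box C/D rows under the minimum, in 0 of the 100 H/ACA members and in 0.535% of the longest transcripts of other genes. CTGA within the last 12 bases, the D box letters, was present in 86.7% of the box C/D members and 5.99% of other genes. An ACA that is followed by exactly 3 last bases was present in 73% of the H/ACA members, in 61.1% of the H/ACA rows under the minimum, in 3.06% of the box C/D members and in 2.63% of other genes. The rows counted as expressed and those under the minimum therefore carried these letters in similar shares. The box C/D members were 64 to 237 bases long with a median of 77.5, the H/ACA members 121 to 272 with a median of 134, and the Cajal body RNAs 125 to 420 with a median of 155.

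Counting depth set which rows became members. At least 30 counts were reached by 110 members in OLFM4-wild, by 199 in OLFM4-knockout and by 162 in OLFM4-active. There were 36 members that reached 30 counts only in the OLFM4-knockout library, the deepest, 1 that did so only in the OLFM4-wild library and 0 only in the library labelled OLFM4-active. SNORD18B and SNORD18C had 0 counts in the OLFM4-wild library, where 3 counts correspond to 0.165 CPM.

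As a group the snoRNA rows stood higher in the OLFM4-knockout and OLFM4-active libraries than in the OLFM4-wild library. Summed over all members they took 3194 CPM (interval 3168 to 3220), 6064 CPM (6043 to 6086) and 4696 CPM (4668 to 4723). These sums are 0.356%, 0.529% and 0.483% of all counts. The box C/D rows summed to 469, 953 and 820 CPM in the same order, the H/ACA rows to 2215, 4153 and 3216 CPM and the Cajal body RNAs to 511, 959 and 660 CPM. In all 3 classes the OLFM4-wild library was lowest and the OLFM4-knockout library highest, and the counting intervals of the libraries did not overlap, except that scaling by library totals alone put the box C/D sum of OLFM4-active (843 CPM) above that of OLFM4-knockout (831 CPM). In bulk RNA, fewer cells that hold an RNA and less of it per cell cannot be told apart.

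A few abundant snoRNAs made up much of these sums. SNORA73A and SNORA73B, the paired U17 snoRNAs that act in pre-rRNA cleavage rather than as guides, held 63.2%, 67.0% and 59.1% of the H/ACA counts. SNORD17, a methylation guide for the large subunit rRNA, held 44.2%, 58.3% and 52.9% of the box C/D counts. Without SNORA73A and SNORA73B the log2 ratio of the H/ACA sums was 0.75 (0.73 to 0.78) for OLFM4-knockout against OLFM4-wild and 0.69 (0.66 to 0.72) for OLFM4-active against OLFM4-wild. Without SNORD17 the box C/D ratios were 0.60 (0.56 to 0.65) and 0.56 (0.51 to 0.61). The higher sums in OLFM4-knockout and OLFM4-active than in OLFM4-wild were therefore also present outside SNORA73A, SNORA73B and SNORD17. The distance between OLFM4-knockout and OLFM4-active was mostly due to these rows. Without them that log2 ratio fell from 0.37 to 0.06 (0.04 to 0.08) for the H/ACA sums. For the box C/D sums it fell from 0.22 to 0.04 (0.01 to 0.08). SCARNA10 (178, 333 and 254 CPM) and SCARNA2 (88.5, 214 and 107 CPM) made up much of the Cajal body sums, and no sum without them was taken.

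**Figure D1:**
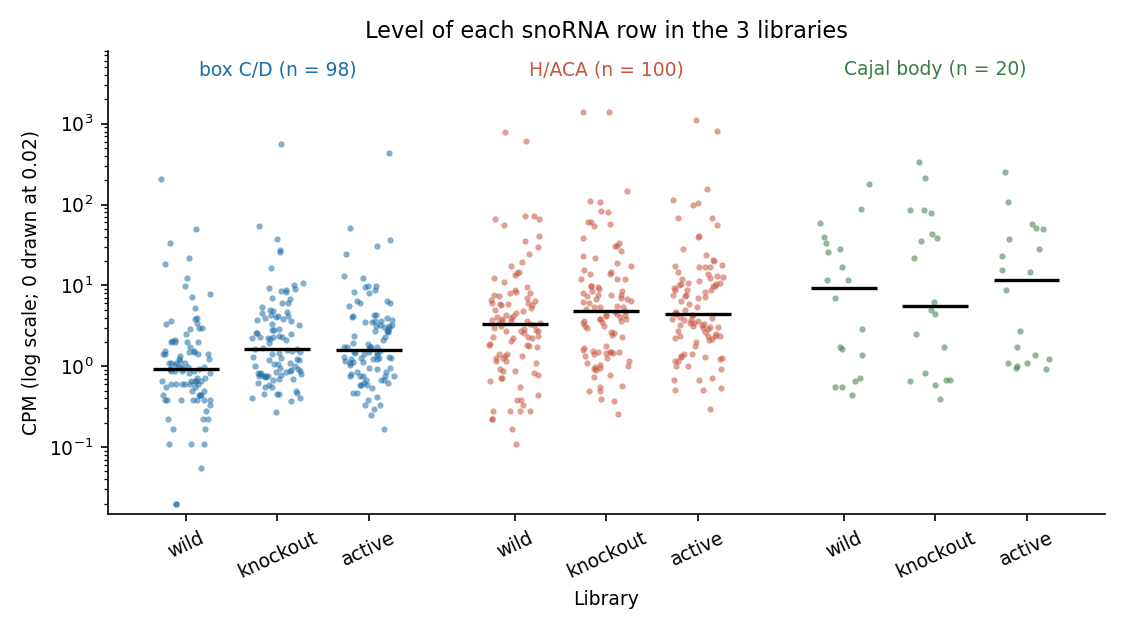
Level of each of the 218 snoRNA rows in CPM (log axis, rows at 0 drawn at 0.02) by class and library, with 1 point per row and a bar at the median. In the order of the axis, the box C/D medians were 0.936, 1.62 and 1.59 CPM and the H/ACA medians 3.30, 4.76 and 4.46 CPM. The Cajal body medians were 9.30, 5.61 and 11.7 CPM, lowest in OLFM4-knockout, unlike the Cajal body sums.

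The typical member moved with the sums for the guides of rRNA, and in the main setting the Cajal body medians were lower. The median log2 fold change of the box C/D members was 0.90 in OLFM4-knockout against OLFM4-wild and 0.86 in OLFM4-active against OLFM4-wild. For the H/ACA members these medians were 0.68 and 0.69, and for the Cajal body RNAs 0.45 and 0.37. The Cajal body medians moved most with the processing: the first was 0.10 with library totals and 0.75 with at least 100 counts, and the second 0.81 with no exon overlap. With at least 100 counts and with no exon overlap the matching H/ACA medians were 0.69 and 0.70. The Cajal body medians were thus not the lower ones there. Over all 19918 genes with at least 30 summed counts the medians were 0.06 and 0.02. Both comparisons use the same OLFM4-wild library, so they are given side by side and are not independent of each other. In the remaining comparison, OLFM4-knockout against OLFM4-active, the medians were 0.06 for box C/D, -0.08 for H/ACA and 0.34 for Cajal body RNAs, beside 0.07 for all genes. The last of these turned to -0.58 over the Cajal body RNAs that overlap no exon of another gene.

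In OLFM4-knockout against OLFM4-wild, 182 of the 218 members had a log2 fold change above 0, where 53.6% of all genes did, 83 members had a log2 fold change above 1, where 6.93% of all genes did, and 8 had one below -1, where 10.9% of all genes did. The counting interval lay wholly above 1 for 41 members, against 2.61% of all genes, and wholly below -1 for 3, against 4.5%. In OLFM4-active against OLFM4-wild, 191 members were above 0 (51.8% of all genes), 84 above 1 (5.62% of all genes) and 4 below -1 (10.1%). There the interval lay wholly above 1 for 25 members, against 1.49% of all genes, and wholly below -1 for 1, against 3.58%. In OLFM4-knockout against OLFM4-active, 112 members were above 0, beside 55.1% of all genes, and 10 were above 1 and 15 below -1, beside 5.04% and 5.77% of all genes. There the interval lay wholly above 1 for 1 member (0.914% of all genes) and wholly below -1 for 3 (1.44%).

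By class, 45 of the 98 box C/D members, 33 of the 100 H/ACA members and 5 of the 20 Cajal body RNAs were above 1 in OLFM4-knockout against OLFM4-wild. In OLFM4-active against OLFM4-wild these counts were 43, 38 and 3. Scaled by library totals alone, 53 members were above 1 and 13 below -1 in OLFM4-knockout against OLFM4-wild, and 3 above and 29 below in OLFM4-knockout against OLFM4-active. The shares of all genes past these limits were not taken under that scaling, so these counts are not a result about snoRNAs. That scaling moved the median of all genes to -0.29 and -0.17 in these comparisons, and the member median lay 0.67 above and 0.05 below the median of all genes, as it did with TMM. A single fold change shifts by -0.35 in OLFM4-knockout and -0.11 in OLFM4-active against OLFM4-wild under that scaling, so members above 0 by less than this change direction.

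**Figure D2:**
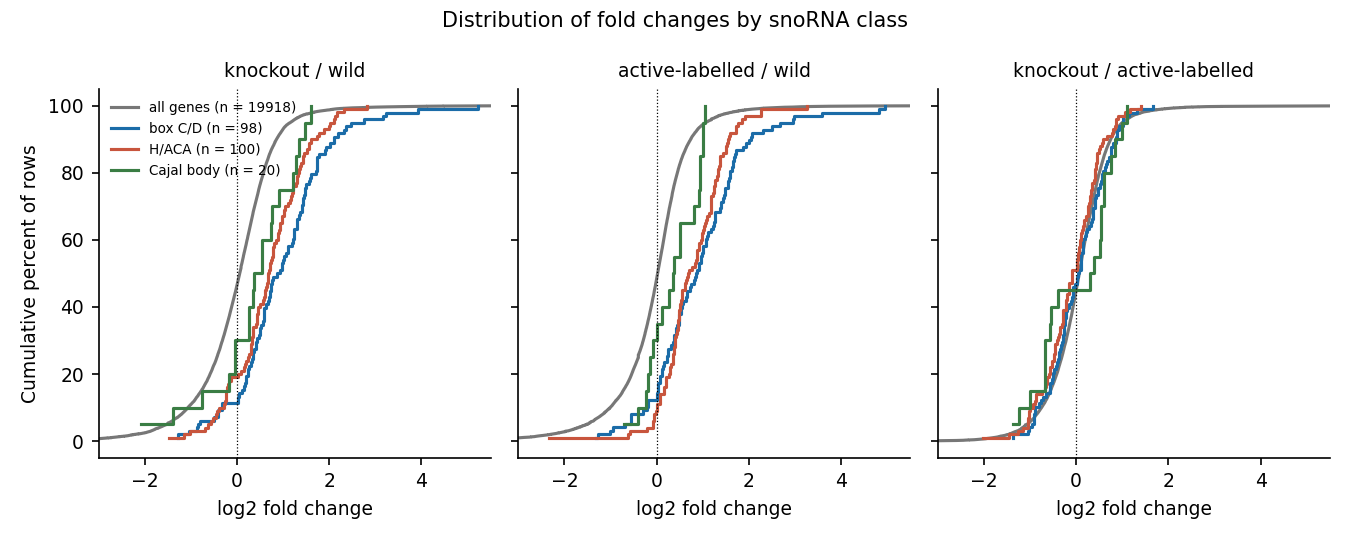
Cumulative percent of rows (vertical axis) by log2 fold change (horizontal axis) for the 3 snoRNA classes and for all genes, in 3 panels, 1 per comparison. In both comparisons with the OLFM4-wild library the box C/D and H/ACA curves lie to the right of all genes (medians 0.90 and 0.68 against 0.06, and 0.86 and 0.69 against 0.02), and in OLFM4-knockout against OLFM4-active they follow it. The axis ends at -3 and leaves out lower values of other genes.

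The snoRNAs that act in pre-rRNA processing were led by SNORA73A and SNORA73B, the 2 most abundant members. SNORA73A had 11068, 71824 and 19174 counts, or 609, 1399 and 802 CPM, a log2 fold change of 1.20 (1.17 to 1.23) and 0.40 (0.36 to 0.43) against OLFM4-wild. SNORA73B stood at 791, 1382 and 1098 CPM, with log2 fold changes of 0.80 (0.78 to 0.83) and 0.47 (0.44 to 0.50). Both were highest in the OLFM4-knockout library. They lie in SNHG3 on chromosome 1 of GRCh38, plus strand, SNORA73A at chr1:28507366-28507571 over an annotated exon and SNORA73B at chr1:28508559-28508762 in an intron. The sequences are shown because they are 93.2% identical, so that counts can be split between them, with the terminal ACA in capitals:
SNORA73A: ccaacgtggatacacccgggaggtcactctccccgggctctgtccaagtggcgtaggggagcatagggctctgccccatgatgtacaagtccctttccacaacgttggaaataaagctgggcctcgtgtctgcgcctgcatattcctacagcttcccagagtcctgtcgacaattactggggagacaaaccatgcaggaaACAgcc
SNORA73B: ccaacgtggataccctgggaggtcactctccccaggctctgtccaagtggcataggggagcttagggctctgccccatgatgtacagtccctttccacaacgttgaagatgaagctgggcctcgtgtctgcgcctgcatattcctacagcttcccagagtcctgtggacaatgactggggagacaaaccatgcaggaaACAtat

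SNORA63, another H/ACA RNA of this group, stood at 65.6, 112 and 106 CPM, and SNORA62 at 2.31, 3.45 and 3.26 CPM. Both were lowest in the OLFM4-wild library, with log2 fold changes of 0.77 and 0.56 in OLFM4-knockout. SNORD13, which pairs with the precursor of the small subunit rRNA and is transcribed from its own gene, had 225, 847 and 298 counts, or 12.4, 16.5 and 12.5 CPM. Its log2 fold change was 0.41 (0.20 to 0.63) in OLFM4-knockout and 0.01 (-0.24 to 0.27) in OLFM4-active, and a copy of 95.2% identity elsewhere makes its count uncertain. The 2 rows of SNORD22, which acts in maturation of the small subunit rRNA, had log2 fold changes of 1.23 and 1.73 in OLFM4-knockout and 1.71 and 0.97 in OLFM4-active.

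SNORD14, or U14, is needed for small subunit rRNA maturation and is encoded in introns of both RPS13 and HSPA8, the gene of a constitutive heat shock cognate chaperone. HSPA8 stood at 465, 2483 and 1912 CPM, a log2 fold change of 2.42 and 2.04, and its 3 copies of SNORD14 were higher in OLFM4-knockout and OLFM4-active as well. SNORD14C had 11, 111 and 41 counts (0.605, 2.16 and 1.72 CPM), SNORD14D 22, 258 and 93 (1.21, 5.03 and 3.89 CPM) and SNORD14E 19, 209 and 66 (1.05, 4.07 and 2.76 CPM). The log2 fold changes were 1.78 (0.94 to 2.88), 2.02 (1.42 to 2.75) and 1.93 (1.28 to 2.72) in OLFM4-knockout and 1.46, 1.66 and 1.37 in OLFM4-active. The copies in RPS13, whose own fold changes were 0.58 and 0.28, were closer to the OLFM4-wild library: SNORD14B had 53, 172 and 77 counts and log2 fold changes of 0.19 (-0.25 to 0.67) and 0.14 (-0.38 to 0.68), and SNORD14A, with 11, 48 and 30 counts, had 0.58 (-0.34 to 1.72) and 1.01 (0.01 to 2.20). The 3 HSPA8 copies follow, on the minus strand of chromosome 11 at chr11:123059335-123059422, chr11:123058909-123058995 and chr11:123058077-123058161, the first 2 over annotated exons and SNORD14E in an intron, shown because they are distinct enough in sequence to be counted apart (at most 81.3% identity to any other snoRNA row), with the C and D box letters in capitals (SNORD14D has no CTGA in its last 12 bases):
SNORD14C: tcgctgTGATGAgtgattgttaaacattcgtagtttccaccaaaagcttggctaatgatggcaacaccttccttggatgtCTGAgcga
SNORD14D: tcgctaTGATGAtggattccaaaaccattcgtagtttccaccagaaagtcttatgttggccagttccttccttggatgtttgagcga
SNORD14E: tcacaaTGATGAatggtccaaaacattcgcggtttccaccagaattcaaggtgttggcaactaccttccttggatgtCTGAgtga

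Among the box C/D guides of rRNA methylation with at least 100 summed counts, the largest log2 fold changes in OLFM4-knockout against OLFM4-wild were those of SNORD34, SNORD27, SNORD42B, SNORD12C and SNORD35A. Rows with few counts in OLFM4-wild pass this limit through the other libraries. A high ratio to OLFM4-wild is therefore partly built into the ranking. SNORD34, in RPL13A, had 4, 119 and 71 counts (0.220, 2.32 and 2.97 CPM) and log2 fold changes of 3.23 (2.002 to 5.30) in OLFM4-knockout and 3.59 (2.34 to 5.67) in OLFM4-active. SNORD27, in SNHG1, had 7, 191 and 76 counts (0.385, 3.72 and 3.18 CPM) and log2 fold changes of 3.18 (2.20 to 4.61) and 2.96 (1.93 to 4.41). For both, few reads in the OLFM4-wild library set the lower end, and the interval of OLFM4-knockout against OLFM4-active included 0.

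By CPM the other 3 were highest in the OLFM4-knockout library and lowest in OLFM4-wild. For SNORD42B the order of OLFM4-knockout and OLFM4-active rests on few counts. SNORD42B, in RPL23A, had 4, 85 and 29 counts, SNORD12C, in ZFAS1, had 24, 356 and 104, and SNORD35A, also in RPL13A, had 16, 212 and 64. Their log2 fold changes in OLFM4-knockout were 2.75 (1.502 to 4.82), 2.36 (1.80 to 3.05) and 2.19 (1.497 to 3.06). In OLFM4-active against OLFM4-wild the 5 largest were SNORD34, SNORD27 and SNORD42B again, then SNORD65 at 2.06 (1.48 to 2.75; 26, 212 and 145 counts) and SNORD68 at 1.94 (1.27 to 2.74; 20, 218 and 103 counts). SNORD17 stood at 207, 555 and 434 CPM, with log2 fold changes of 1.42 (1.37 to 1.47) and 1.07 (1.01 to 1.12).

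The sequences of SNORD27 (chr11:62855012-62855083, minus strand) and SNORD34 (chr19:49490904-49490974, plus strand) are shown as the members with the largest fold changes by this rule, and both lie over annotated exons of their host. SNORD27 carries both boxes in capitals, while SNORD34 carries the D box letters and no TGATGA in its first 20 bases:
SNORD27: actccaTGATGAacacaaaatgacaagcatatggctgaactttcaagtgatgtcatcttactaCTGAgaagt
SNORD34: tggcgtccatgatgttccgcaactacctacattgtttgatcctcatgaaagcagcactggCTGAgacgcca

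Other low-count rows, in 2 host genes, named after their values were seen, showed the OLFM4-wild library at or near 0. They reached 30 summed counts through the OLFM4-knockout and OLFM4-active libraries, so a high ratio to OLFM4-wild is partly built into their choice. Members not named for this, such as SNORD45B, SNORD100, SNORD69 and SNORD11B, also had only 2 or 3 counts in OLFM4-wild. In RPL4, SNORD18C had 0, 52 and 18 counts and SNORD18B 0, 21 and 20. With 0 counts in the OLFM4-wild library, only the lower end of the exact interval of the ratio can be given. For SNORD18C it was 4.815 in OLFM4-knockout and 3.344 in OLFM4-active, and for SNORD18B it was 1.843 and 3.755. The third copy, SNORD18A, had 7, 56 and 15 counts, so it was detected in the OLFM4-wild library. In RPL17, SNORD58A had 2, 35 and 18 counts, a ratio of 6.20 (1.59 to 53.2) in OLFM4-knockout, and SNORD58C had 1, 23 and 15, a ratio of 8.14 (1.32 to 335), while the third snoRNA of RPL17, SNORD58B, had a log2 fold change of 0.19.

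SNORD18A and SNORD18C are given for comparison, since one was detected in the OLFM4-wild library and the other was not although both lie over annotated exons of RPL4 transcripts on the minus strand of chromosome 15 (chr15:66503243-66503314 and chr15:66501250-66501318), again with the C and D box letters in capitals:
SNORD18A: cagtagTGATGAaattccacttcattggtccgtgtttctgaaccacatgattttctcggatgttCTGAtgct
SNORD18C: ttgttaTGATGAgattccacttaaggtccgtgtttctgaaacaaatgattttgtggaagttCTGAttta

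At the other end, SNORD8 and SNORD89 were lower in OLFM4-knockout and OLFM4-active than in OLFM4-wild. SNORD8, in CHD8, had 46, 54 and 30 counts (2.53, 1.05 and 1.26 CPM) and log2 fold changes of -1.27 (-1.86 to -0.67) in OLFM4-knockout and -1.003 (-1.73 to -0.32) in OLFM4-active. SNORD89, in RNF149, had 95, 130 and 78 counts (5.23, 2.53 and 3.26 CPM) and log2 fold changes of -1.05 (-1.44 to -0.65) and -0.68 (-1.13 to -0.23). SNORD15B, in RPS3, differed between OLFM4-knockout and OLFM4-active, with 50.0, 27.7 and 51.1 CPM and log2 fold changes of -0.85 (-0.97 to -0.73) and 0.03 (-0.09 to 0.16).

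SNORD45A was at 2.09, 1.48 and 1.72 CPM, with intervals that included 0 in both comparisons. SNORD2, in EIF4A2, was level across the libraries at 9.85, 10.01 and 9.88 CPM, with log2 fold changes of 0.02 (-0.22 to 0.28) and 0.00 (-0.28 to 0.29). Its H/ACA neighbors in the same host, SNORA81 and SNORA63, had log2 fold changes of 0.97 and 0.77 in OLFM4-knockout.

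Among the H/ACA guides of pseudouridylation with at least 100 summed counts, the largest log2 fold changes in OLFM4-knockout were those of SNORA20, SNORA61, SNORA54, SNORA2B and SNORA21. SNORA61, in SNHG12, had 111, 1381 and 482 counts (6.11, 26.9 and 20.2 CPM) and log2 fold changes of 2.13 (1.86 to 2.43) in OLFM4-knockout and 1.72 (1.42 to 2.03) in OLFM4-active. SNORA21, in RPL23, had 79, 899 and 295 counts (4.35, 17.5 and 12.3 CPM) and log2 fold changes of 2.002 (1.68 to 2.36) and 1.499 (1.14 to 1.88). Both were well counted in the OLFM4-wild library, unlike SNORA20 (5, 77 and 34 counts, log2 fold changes 2.32 and 2.25) and SNORA2B (7, 85 and 32 counts, 2.01 and 1.72). SNORA20 and SNORA2B passed the limit of 100 counts through the other libraries, so a high ratio is partly built into their choice.

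SNORA54, in NAP1L4, was higher in the OLFM4-knockout library than in OLFM4-active. Its 26, 322 and 56 counts gave 1.43, 6.27 and 2.34 CPM and log2 fold changes of 2.11 (1.55 to 2.77) and 0.70 (0.02 to 1.44). In OLFM4-active the 5 largest were SNORA75 at 2.26 (1.42 to 3.32; 12, 131 and 78 counts), SNORA20, SNORA2B, SNORA61 and SNORA38B at 1.59 (0.74 to 2.63; 13, 82 and 53 counts). SNORA75 lies in NCL, the gene of nucleolin, whose own log2 fold changes were -0.02 in OLFM4-knockout and 1.26 in OLFM4-active.

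Of the more abundant H/ACA members, SNORA74A stood at 66.9, 148 and 157 CPM, SNORA53 at 56.6, 108 and 115 CPM and SNORA81 at 41.1, 80.5 and 97.8 CPM. In these 3 the OLFM4-wild library was lowest, with log2 fold changes of 0.94 to 1.15 in OLFM4-knockout and 1.02 to 1.25 in OLFM4-active. SNORA17B did not follow them, at 71.9, 61.0 and 68.0 CPM and log2 fold changes of -0.24 (-0.33 to -0.14) and -0.08 (-0.19 to 0.03). It is listed in 2 overlapping rows with identical counts.

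Lower H/ACA members were fewer. SNORA47, in ZBED3, had 51, 65 and 13 counts (2.81, 1.27 and 0.544 CPM) and log2 fold changes of -1.15 (-1.70 to -0.59) in OLFM4-knockout and -2.33 (-3.37 to -1.47) in OLFM4-active, where it was the only H/ACA member below -1. SNORA22 had 318, 442 and 424 counts (17.5, 8.61 and 17.7 CPM) and SNORA22C 89, 90 and 76 (4.90, 1.75 and 3.18 CPM), so both were lowest in the OLFM4-knockout library. Their log2 fold changes were -1.02 (-1.23 to -0.81) and -1.48 (-1.92 to -1.04) in OLFM4-knockout and 0.02 and -0.62 in OLFM4-active. They lie on chromosome 7, plus strand, at chr7:65755526-65755659 in CCT6P1 and chr7:65065999-65066132 in CCT6P3, both pseudogenes, and overlap no exon. Their sequences are 98.5% identical, shown here because unique mapping can separate them only at the differing bases, with the ACA in capitals:
SNORA22: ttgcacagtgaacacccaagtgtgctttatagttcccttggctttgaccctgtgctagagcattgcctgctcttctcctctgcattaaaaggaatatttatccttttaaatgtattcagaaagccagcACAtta
SNORA22C: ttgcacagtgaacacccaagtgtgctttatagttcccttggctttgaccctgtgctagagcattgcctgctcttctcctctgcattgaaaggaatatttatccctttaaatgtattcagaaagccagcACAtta

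SNORA33, in RPS12, stood at 6.55, 4.27 and 10.3 CPM, lower in OLFM4-knockout (log2 fold change -0.62, -0.95 to -0.28) and higher in OLFM4-active (0.65, 0.33 to 0.98). SNORA60 had the same order at 1.32, 0.896 and 2.47 CPM, with an interval that included 0 in OLFM4-knockout. SNORA78 and SNORA6 had intervals that included 0 in OLFM4-active against OLFM4-wild.

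The small Cajal body RNAs, guides for spliceosomal RNAs, were found on both sides of 0. Of the 14 with at least 100 summed counts, SCARNA6, SCARNA12, SCARNA5, SCARNA2 and SCARNA23 were above 1 in OLFM4-knockout against OLFM4-wild. SCARNA6 and SCARNA5 lie in the same host gene, ATG16L1, and stood at 11.6, 35.5 and 23.2 CPM and at 33.3, 84.9 and 58.3 CPM. SCARNA12, in PHB2, stood at 28.6, 79.7 and 37.2 CPM and SCARNA2 at 88.5, 214 and 107 CPM, both furthest apart in the OLFM4-knockout library. Their log2 fold changes were 1.61 (1.41 to 1.83) for SCARNA6, 1.35 for SCARNA5, 1.48 for SCARNA12 and 1.27 for SCARNA2, and in OLFM4-active 1.005, 0.81, 0.38 and 0.28.

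SCARNA10, the most abundant of them, stood at 178, 333 and 254 CPM, with log2 fold changes of 0.90 (0.85 to 0.96) and 0.51 (0.45 to 0.57). SCARNA7 was higher in OLFM4-knockout and lower in OLFM4-active, at 58.5, 84.8 and 50.0 CPM, and SCARNA13 stood at 26.0, 43.3 and 28.4 CPM. SCARNA21 at 16.9, 21.9 and 15.3 CPM, SCARNA22 at 2.92, 5.01 and 2.76 CPM and SCARNA17 at 1.71, 2.53 and 1.72 CPM had log2 fold changes of 0.37, 0.77 and 0.55 in OLFM4-knockout. SCARNA1 had the reverse pattern, at 7.04, 6.21 and 14.6 CPM, with log2 fold changes of -0.18 (-0.48 to 0.13) and 1.05 (0.76 to 1.36). SCARNA16 stood at 39.9, 38.6 and 50.9 CPM.

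The 2 Cajal body RNAs below -1 in OLFM4-knockout were SCARNA9 and SCARNA8, both guides for U2 small nuclear RNA. SCARNA9 had 213, 229 and 212 counts, or 11.7, 4.46 and 8.87 CPM, with log2 fold changes of -1.39 (-1.67 to -1.12) and -0.40 (-0.68 to -0.12). SCARNA8, with under 100 counts and named after its values were seen, had 30, 20 and 24 counts, or 1.65, 0.390 and 1.004 CPM, with log2 fold changes of -2.07 (-2.98 to -1.22) and -0.71 (-1.55 to 0.11). It is shown as the member with the lowest fold change in OLFM4-knockout (chr9:19063656-19063786, minus strand, in an intron of HAUS6), with the ACA in capitals:
SCARNA8: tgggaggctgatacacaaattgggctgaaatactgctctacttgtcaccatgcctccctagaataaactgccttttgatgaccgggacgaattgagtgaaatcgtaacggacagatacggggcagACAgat

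A host gene was found for 215 members, as the smallest other gene that spans the snoRNA on the same strand, and 122 genes served as hosts. SNORD13, SNORA10B and SNORA11F had none. For the 214 members whose host held at least 30 counts, the median host log2 fold change was 0.45 in OLFM4-knockout against OLFM4-wild and 0.25 in OLFM4-active against OLFM4-wild. The snoRNA was above its host in 127 and 147 of them, and in 85 of them in OLFM4-knockout against OLFM4-active. Members hosted by ribosomal protein genes (57) had a median of 0.74 in OLFM4-knockout and 0.83 in OLFM4-active, where their hosts had 0.42 and 0.03. Members in long noncoding host genes (52) had 0.85 and 0.78, where their hosts had 0.56 and 0.34. Some of these hosts held nearly the counts of their snoRNA, so the 2 values are there almost the same measurement. SCARNA2 had 1608, 10966 and 2561 counts and its host 1608, 10966 and 2562. SCARNA16 had 725, 1983 and 1216 and its host SNHG20 had 791, 2359 and 1319. Members in other protein-coding genes (102) had 0.69 and 0.83, where their hosts had 0.43 and 0.35.

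Across the 214 pairs Pearson's r of snoRNA and host log2 fold change was 0.273 (Spearman's rho 0.251) in OLFM4-knockout and 0.0518 (0.0897) in OLFM4-active. The points share the OLFM4-wild library, members of 1 host share its value, and 139 members overlap an annotated exon of another gene on their strand, so that a read can count for both. Among the 75 pairs with no such overlap r was 0.323 in OLFM4-knockout and 0.0209 in OLFM4-active. Without the HSPA8 members r was 0.237 and 0.0153. The members with no exon overlap had a lower median than the others in OLFM4-knockout (0.49 against 0.89) and a higher one in OLFM4-active (0.89 against 0.65).

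**Figure D3:**
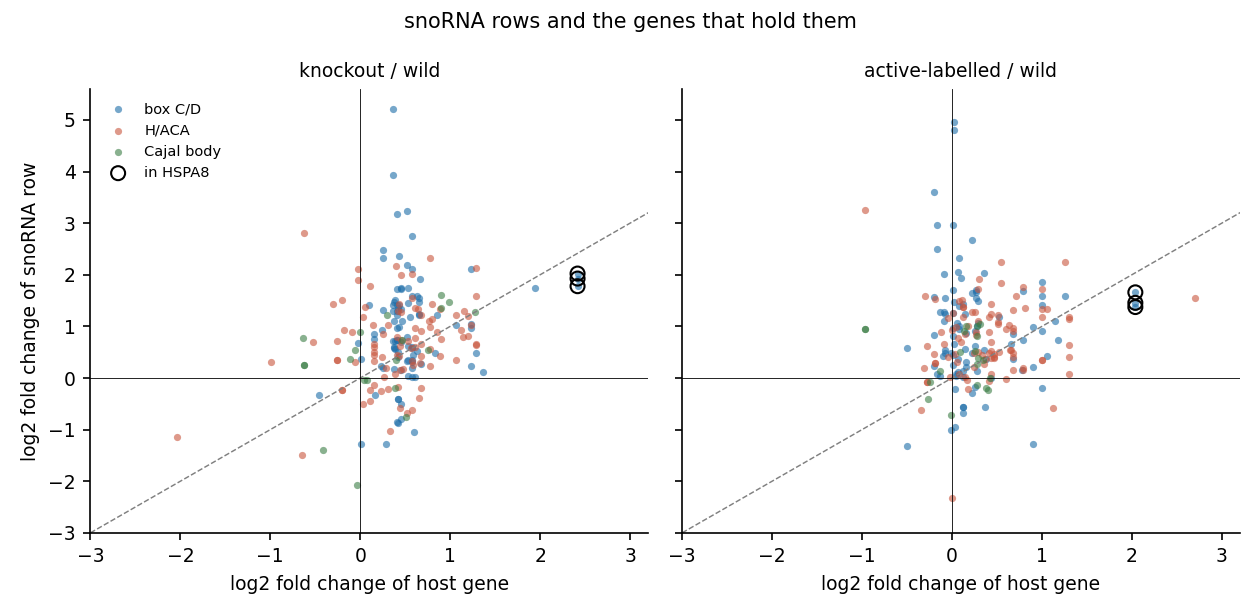
log2 fold change of each snoRNA row (vertical) against that of its host gene (horizontal) for OLFM4-knockout and OLFM4-active against OLFM4-wild, with 1 point per row, class by color, the line of equal change dashed and the 3 rows in HSPA8 ringed. Points lie above the dashed line for 127 and 147 of 214 rows, and r is 0.273 and 0.0518. Hosts above 3.2 fall outside the horizontal axis.

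Members of 1 host did not share 1 fold change. The 7 box C/D rows in SNHG1 ran from 0.74 to 3.18 in OLFM4-knockout and from 0.25 to 2.96 in OLFM4-active, all above the host at 0.41 and 0.01. The 4 in RPL13A ran from 0.32 to 3.23 and from 0.24 to 3.59, with the host at 0.52 and -0.20. In NOP56, which encodes a core protein of box C/D particles, 5 members ran from 0.23 to 2.10, with the host at 1.23, and in SNHG12 4 ran from 0.49 to 2.13, with the host at 1.29. The 8 members in TAF1D stayed closer together, from -0.13 to 0.86 in OLFM4-knockout and from 0.16 to 1.31 in OLFM4-active, with the host at 0.15 and 0.68.

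**Figure D4:**
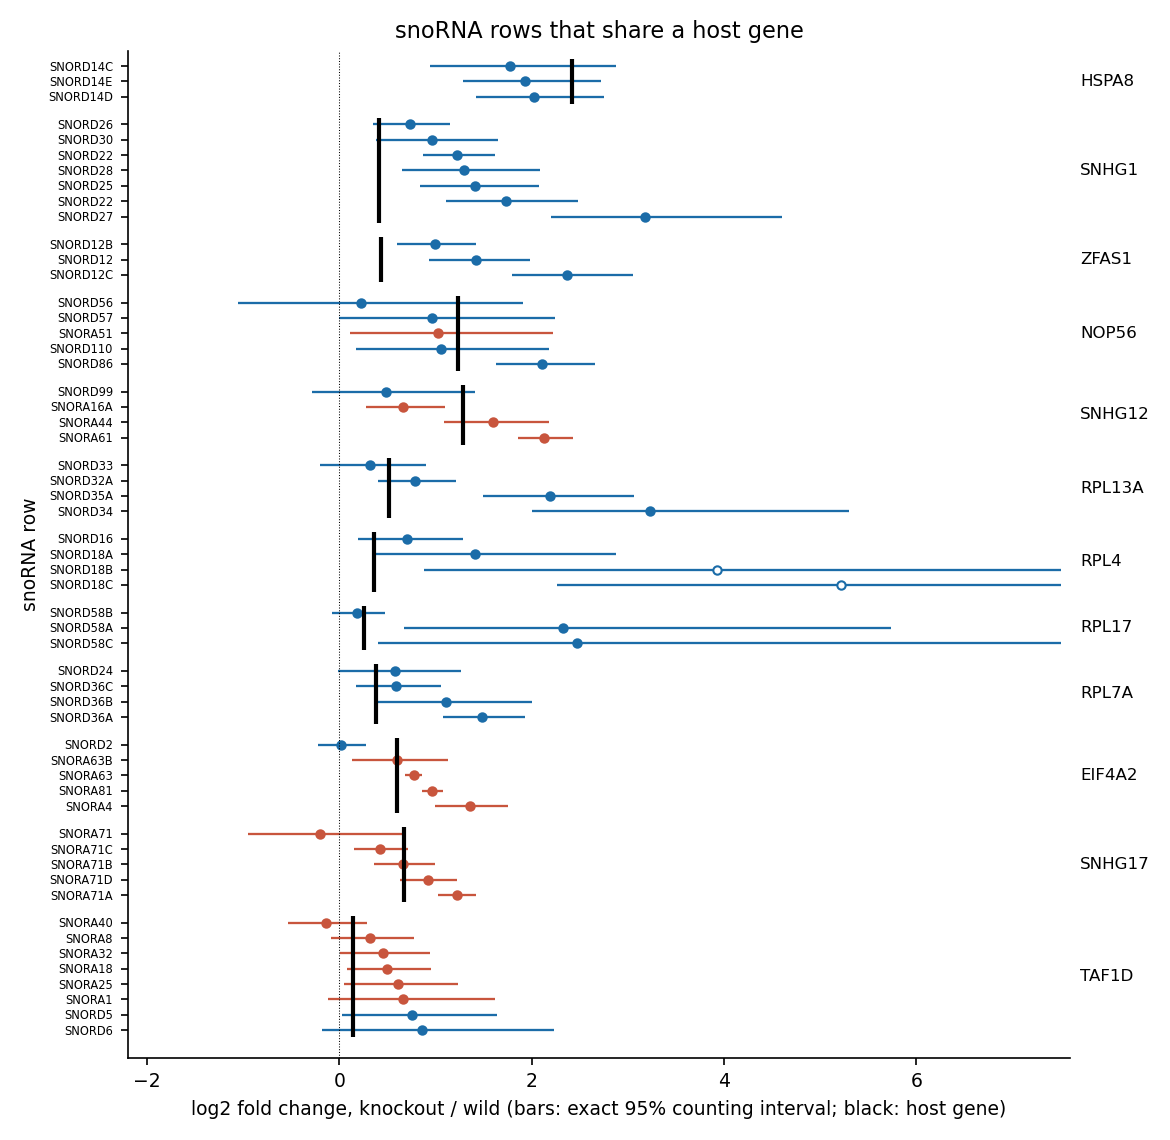
log2 fold change in OLFM4-knockout against OLFM4-wild (horizontal) of the snoRNA rows in 12 host genes, with exact 95% counting intervals as bars, blue for box C/D and red for H/ACA, and a black line at the host's value. Open points had 0 counts in the OLFM4-wild library, so that their position depends on the 0.5 counts added, and bars that reach the right edge are longer than drawn. All 7 rows in SNHG1 lie to the right of the host at 0.41, and the 3 in HSPA8 to the left of 2.42.

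Length was examined because snoRNAs are shorter than most counted genes. Box C/D members of at most 100 bases (83) had medians of 0.97 in OLFM4-knockout and 0.91 in OLFM4-active, and the 15 longer ones 0.50 and 0.16. Other genes with a span of at most 100 bases (89) had medians of 0.21 and 0.00, and those over 100 and up to 150 bases (77) had 0.41 and 0.47, beside 0.59 and 0.62 for the 114 members of that span. Small nuclear RNA rows (60) had medians of 0.87 and 1.23, above those of all members together (0.72 and 0.74). MicroRNA rows (50) had 0.11 and -0.06 and miscellaneous RNA rows (104) 0.26 and 0.22. Of these sets of other short rows, only the small nuclear RNA rows thus had medians as high as all members together. Other genes over 100 and up to 150 bases stood near the Cajal body RNAs (0.45 and 0.37). The span sets of other genes leave out snoRNAs only, so they can hold small nuclear RNA rows. The part of RNA recovery in these values was not tested.

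**Figure D5:**
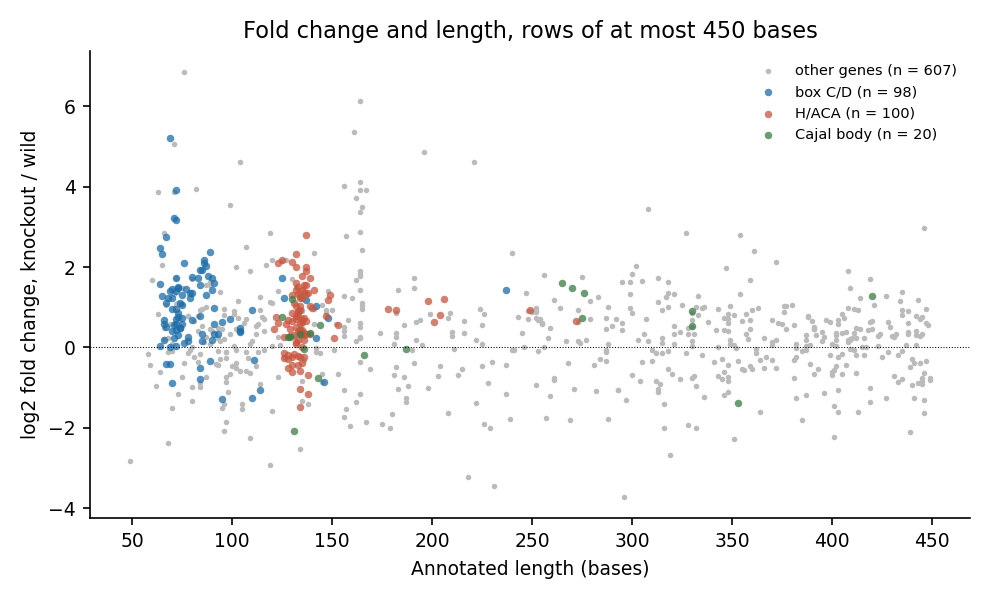
log2 fold change in OLFM4-knockout against OLFM4-wild (vertical) against annotated span in bases (horizontal) for the 218 snoRNA rows, by class, and for 607 other genes of at most 450 bases. The box C/D rows of at most 100 bases have a median of 0.97, and other genes of that span 0.21.

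Reads from introns alone can give counts to a row inside one. Of 672 microRNA rows that lie within a gene on its strand and overlap no exon, 27 (4.02%) reached 30 summed counts. The share was 20.2% for box C/D rows in the same position (22 of 109), 53.3% for H/ACA rows (40 of 75) and 76.5% for Cajal body rows (13 of 17). Among rows that overlap no exon, the box C/D rows were thus nearest to the microRNA rows by this share. The 75 box C/D members that overlap an exon are outside this comparison. Since the classes differ in length, the part of length in these shares was not tested. In all 3 classes precursor and mature RNA cannot be told apart from these counts.

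The genes that build and process snoRNA particles were also higher in OLFM4-knockout and OLFM4-active than in OLFM4-wild, by less than the snoRNAs. All 28 genes of the list were above 0 in OLFM4-knockout against OLFM4-wild, with a median of 0.50, and 25 had intervals wholly above 0, where 37% of all genes did. Scaled by library totals alone, 18 of the 28 were above 0 there, and the share of all genes was not taken under that scaling. In OLFM4-active 24 were above 0, with a median of 0.44, and 22 had intervals wholly above 0 (31% of all genes) and 1 wholly below (26.8%). The largest in OLFM4-knockout were NOP56 at 1.23 (99.0, 233 and 198 CPM) and the assembly factor NUFIP1 at 1.15 (11.1, 24.6 and 22.9 CPM). Fibrillarin (FBL) stood at 101, 132 and 134 CPM. Dyskerin (DKC1) stood at 47.9, 76.2 and 104 CPM and its partner GAR1 at 5.503, 6.29 and 15.9 CPM, both highest in the library labelled OLFM4-active, with log2 fold changes there of 1.12 and 1.53.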

How the data were processed

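Total RNA from 3 libraries of RWPE1 cells was depleted of rRNA and sequenced as stranded read pairs. The deposited table holds whole-number counts per gene, not normalized, which the authors made with cutadapt, HISAT2 and featureCounts from uniquely mapped, reversely stranded pairs on GRCh38. Of 58037 genes, 56948 were named through GENCODE 44 and 1089 had no entry there. Of 5 pairs of overlapping rows, 4 held identical counts, so reads over both rows were counted for both. Column-purified RNA and fragments of precursors limit what such counts say about mature snoRNAs.

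The members and lists were chosen with earlier results of these data known. Counts were scaled by TMM (edgeR 4.0.16, R 4.3.3), with factors of 1.114, 0.872 and 1.029 for OLFM4-wild, OLFM4-knockout and OLFM4-active, and 0.5 counts were added before the logarithm. With 1 library per state no test was made. Intervals are exact 95% Clopper-Pearson intervals (scipy 1.17.1) and cover counting error only. Identity between snoRNA rows came from edlib 1.3.9, with 90% or more called a near copy. The code was tested on simulated data.

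Named members are the 10 with the highest mean CPM, the 5 highest and 5 lowest fold changes of the box C/D and H/ACA classes in each comparison with OLFM4-wild among members with at least 100 summed counts, every Cajal body RNA with at least 100 counts, and the pre-rRNA processing snoRNAs. The snoRNAs of imprinted clusters, the snoRNA particle genes and cell type markers were listed likewise. The alternatives were other library scalings (DESeq2 1.42.0 size factors, upper quartile, library totals, and sizes without the 10 most abundant genes), offsets of 1 and 5 counts, minimums of 10 and 100 counts or a mean of 1 CPM, thinning to the smallest library, 1 value per host and no exon overlap.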

Additional observations from a re-analysis of the deposited data

How the results depend on the processing

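No paired analysis was possible because each state has 1 library. The class medians against OLFM4-wild stayed above 0 under all 14 alternatives, from 0.54 to 1.04 for box C/D, 0.33 to 0.74 for H/ACA and 0.10 to 0.75 for Cajal body RNAs in OLFM4-knockout, and from 0.69 to 1.01, 0.58 to 0.83 and 0.20 to 0.81 in OLFM4-active. Of all 252 values, 199 kept within a set margin, and the cause of the others was not tested beyond what each setting changes. The margin was 1.5 times the main count for a count of members and the counting error for a sum. For a class median it was the counting error of a typical single member (0.84 for box C/D in OLFM4-knockout against OLFM4-wild), which is not the error of the median. A median could thus move far and still be kept, so the 199 do not measure stability. Correlations had a margin set by the number of pairs or genes. Counts of members above 1 are given as above and those below -1 as below. The alternatives with 1 row per locus, with no near copy and with no exon overlap for host pairs were chosen after seeing the data.

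With library totals, OLFM4-knockout against OLFM4-wild had 53 above and 13 below and a Cajal body median of 0.10, and OLFM4-knockout against OLFM4-active had 3 above and 29 below. With the upper quartile the latter had 5 above and 24 below. The shares of all genes above and below were not taken under these scalings. With library totals the box C/D sums were 522, 831 and 843 CPM, so that OLFM4-active was highest, the H/ACA sums 2467, 3623 and 3309 and the Cajal body sums 569, 836 and 679. With the upper quartile the box C/D sums were 911 (OLFM4-knockout) and 843 (OLFM4-active), the H/ACA sums 2251, 3972 and 3308, and the Cajal body sums 917 (OLFM4-knockout) and 679 (OLFM4-active). DESeq2 size factors gave 3241 for H/ACA in OLFM4-active. Including the SNORD3 copies and SNORD118 gave box C/D sums of 1443, 4092 and 3006.

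In OLFM4-active against OLFM4-wild, 2 were below with an offset of 5 counts, a minimum of 100 counts, a mean of 1 CPM or no exon overlap, 1 with 1 value per host and 17 with a minimum of 10 counts. In OLFM4-knockout against OLFM4-active, 4 were above with an offset of 5 counts, 6 with a minimum of 100 counts, a mean of 1 CPM or thinned libraries, 5 with 1 value per host, 2 with no exon overlap and 18 with a minimum of 10 counts, and 9 were below with a minimum of 100 counts or 1 value per host and 29 with a minimum of 10. In OLFM4-knockout against OLFM4-wild, 21 were below with a minimum of 10 counts and 5 with no exon overlap. With 1 value per host, 50 and 47 were above in OLFM4-knockout and OLFM4-active against OLFM4-wild, and with no exon overlap, which leaves 79 members, 24 and 32.

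The Cajal body median was 0.75 in OLFM4-knockout with a minimum of 100 counts and 0.81 in OLFM4-active with no exon overlap. It reversed to -0.58 in OLFM4-knockout against OLFM4-active with no exon overlap. Across all genes Spearman's rho of fold change and span in OLFM4-active was 0.00, and -0.22 among genes under 400 bases. Depth limits the OLFM4-wild library most, where 3 counts correspond to 0.165 CPM against 0.0584 in OLFM4-knockout, and the median member row held 30.5 counts.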

Other observations

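The snoRNAs of the imprinted clusters (SNORD113 to SNORD116, SNORD64 and SNORD107 to SNORD109), known from brain and from Prader-Willi syndrome, gave 0 members. Of their 127 rows, 105 were at 0 in all libraries and the highest held 21 summed counts. The SNORD116 rows, 33 in all, summed to 56, 31 and 19 counts in OLFM4-wild, OLFM4-knockout and OLFM4-active respectively, or 3.08, 0.604 and 0.795 CPM. They were thus highest in the OLFM4-wild library, opposite to the class medians.

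SNORA80E, in KHDC4, had the largest log2 fold change of the H/ACA class, from 2, 49 and 31 counts. It was chosen after its values were seen, and its ratio to the OLFM4-wild library was 8.67 (2.28 to 73.6) in OLFM4-knockout and 11.8 (2.999 to 102) in OLFM4-active. Its host had log2 fold changes of -0.63 and -0.97, below 0 in both.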
